A study of Mus musculus with 8 samples.

Results

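Metallothioneins and the zinc transporters of the intestinal wall were followed in 7 genes, measured by 9 of the 39429 probes on each array. The genes are the metallothioneins Mt1 and Mt2, the zinc importers Slc39a4 and Slc39a5, the exporters Slc30a1 and Slc30a10, and the transcription factor Mtf1. They were chosen by name, through the transcript accession of each probe, out of 32540 genes on the array, 21308 of which were bright enough to be tested. All 7 passed that filter, and the tested probe of each was well above background on all 8 arrays. Mt1, Mt2, Slc39a4, Slc39a5, Slc30a1 and Slc30a10 have 1 probe each, and Mtf1 has 3.

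Small intestines of C57BL/6J Min/+ mice gave the total RNA, labelled with Cy3, that each array holds. These mice carry the Min mutation in 1 copy of the tumour suppressor gene Apc and develop intestinal tumours. All 8 arrays, on both diets, come from mice of this genotype. There were 2 arrays each for males on a Western diet, females on a Western diet, males on a control diet and females on a control diet, and the feeding experiment lasted 18 months. The control diet was the unmodified semisynthetic AIN-93G diet, and the Western diet was a version of it with more fat and with less fiber, vitamin D, calcium and folate, in which milk gave 66.4% of the fat and rapeseed and sunflower oil gave 33.6%. Each array held RNA from 1 to 3 mice, so an array may be a pool, and the labels do not say which mice went into which array. The p-values below therefore measure the spread between arrays.

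Zinc enters the enterocyte from the gut lumen through importers of the ZIP (Slc39) family and leaves it toward the blood through exporters of the ZnT (Slc30) family. Metallothioneins are small, cysteine-rich proteins that bind zinc and copper in the cell. When free zinc is high, Mtf1 binds to metal response elements in promoters and raises the transcription of Mt1, Mt2 and Slc30a1; glucocorticoids and inflammation are also known to raise metallothioneins.

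The promoters are shown because metal response elements are what places a gene under Mtf1. RefSeq (GRCm38.p6) promoter windows were available for 6 of the 7 genes, all but Slc39a4. Each window runs from 250 bases before the annotated start to 50 after it, and the 250 bases before the start are printed 5′ to 3′ on the strand of the gene. Capitals mark the core of the metal response element, searched as TGCACNC and TGCGCNC on both strands, so a match on the opposite strand is printed as GNGTGCA or GNGCGCA. The Mt1 stretch lies at chr8:94178839-94179088 (plus strand), that of Mt2 at chr8:94172368-94172617 (plus strand), that of Slc30a1 at chr1:191906531-191906780 (plus strand) and that of Slc30a10 at chr1:185454598-185454847 (plus strand).
Mt1: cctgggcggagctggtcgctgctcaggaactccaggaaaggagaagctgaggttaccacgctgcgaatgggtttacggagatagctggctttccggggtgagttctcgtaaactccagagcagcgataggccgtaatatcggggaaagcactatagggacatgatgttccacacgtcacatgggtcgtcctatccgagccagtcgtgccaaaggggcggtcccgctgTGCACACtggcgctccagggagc
Mt2: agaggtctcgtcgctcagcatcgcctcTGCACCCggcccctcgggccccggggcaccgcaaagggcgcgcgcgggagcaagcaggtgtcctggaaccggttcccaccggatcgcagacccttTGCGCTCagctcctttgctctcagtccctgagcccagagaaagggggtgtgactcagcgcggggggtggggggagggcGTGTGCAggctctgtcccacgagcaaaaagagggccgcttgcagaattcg
Slc30a1: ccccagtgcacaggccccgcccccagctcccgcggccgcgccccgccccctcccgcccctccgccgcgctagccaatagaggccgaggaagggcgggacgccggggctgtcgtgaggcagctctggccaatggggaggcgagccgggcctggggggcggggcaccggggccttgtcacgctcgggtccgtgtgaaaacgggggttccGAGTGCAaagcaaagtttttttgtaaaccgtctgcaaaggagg
Slc30a10: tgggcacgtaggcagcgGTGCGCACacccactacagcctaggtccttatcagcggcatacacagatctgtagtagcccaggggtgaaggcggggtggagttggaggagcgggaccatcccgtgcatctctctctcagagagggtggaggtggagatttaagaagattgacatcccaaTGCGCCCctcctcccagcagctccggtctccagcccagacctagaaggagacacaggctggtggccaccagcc

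Over the whole 300-base windows, Mt2 held 4 matches, Mt1 and Slc30a10 held 3 each, Slc30a1 held 2 and Mtf1 held 0. Slc39a5 held 1 in the window of its first annotated start and 0 in that of its second. In Mt1, 1 match lies before the annotated start and the other 2 after it, where the sequence is not printed. These positions are relative to that annotated start only, and the start used in these intestines was not examined. In Slc30a10, 2 of the 3 matches overlap each other on opposite strands. Among all 32851 windows of 27025 genes, 25.7% held at least 1 match, 7.11% at least 2, 1.97% at least 3 and 0.517% at least 4. A match describes these letters and does not show that Mtf1 binds there.

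Values are log2 ratios of a probe's processed signal to the array's own 75th percentile, so 0 is the level that 3 in 4 probes stay under and a difference of 1 is a doubling. The 75th percentile lay between 486 and 902 signal units, and no spot was saturated. Probes well above background made up 55.1% to 61.9% of each array except Control female 2, where they made up 75.6%; that array also stood apart on the first principal component, at 146.4 against -33.2 to 1.58 for the other arrays. Smooth muscle markers, a list of 11 genes, averaged -3.49 to -1.92 on the Western arrays, against 1.30 on Control male 1 and -3.23 to -1.99 on the other control arrays. The array labelled Control female 1 carried the Y-linked transcripts Ddx3y at -0.46, Eif2s3y at 1.90 and Uty at -2.71, well above background as on the 4 male arrays, whereas the other 3 female arrays did not; the name of its deposited file also bears the abbreviation found in the names of the 4 Western diet files. It was kept where its title and diet label put it, and the diet differences within females are also given without it. All 14 enterocyte markers were well above background on all 8 arrays, and their summed level was 1737 to 2810 times the 75th percentile on Western arrays and 1920 to 2613 times on control arrays. Pancreatic acinar markers, of which 8 of 16 were bright enough to be tested, summed to 0.766 to 1.35 on Western arrays and 0.905 to 1.95 on control arrays. Fat cell markers, 6 of them tested, averaged 1.58 on Western female 2 and -3.61 to -2.61 on the other Western arrays, against -3.48 to -1.68 on control arrays. Immune cell markers summed to 67.7 to 97.6 on Western arrays and 66.3 to 112 on control arrays.

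The metallothioneins, with Slc30a10, varied most between arrays among the 7 genes. Mt1 was at 7.02 and 6.21 on Western male arrays and 5.90 and 6.20 on Western female arrays, against 3.74 and 6.41 on control male arrays and 5.49 and 5.79 on control female arrays. The diets overlapped: Control male 2 was above 3 of the 4 Western arrays, and Control male 1 was the lowest of the 8. Its mean was 6.33 ± 0.48 on the Western diet and 5.36 ± 1.14 on the control diet (SD, n = 4 each), a log2 difference of 0.97 ± 0.59 (SE) or 1.97-fold, with an adjusted p of 0.995 in limma. The lowest and highest array were 9.70-fold apart.

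Mt2 followed the same order of arrays at the extremes. It was at 5.39 and 4.50 on Western male arrays and 3.47 on Western female 1, against 0.99 and 4.85 on control male arrays and 2.79 and 3.17 on control female arrays. The spot of Western female 2 was marked as an outlier by the scanner software, so this value, 3.73, was left out of the fit. The Western mean was 4.45 ± 0.96 (SD, n = 3) and the control mean 2.95 ± 1.58 (SD, n = 4). The fitted diet difference, which weights the sexes equally, was 1.26 ± 1.00 (SE) or 2.40-fold over 7 arrays, with an adjusted p of 0.995 in limma. The arrays spanned 21.1-fold, and the diets overlapped.

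The array Control male 1 set much of the size of both differences. Without it, the diet difference was 0.31 for Mt1 and 0.30 for Mt2; without Control male 2, it was 1.64 for Mt1 and 2.23 for Mt2. Control male 1 was the array with the high smooth muscle markers, whose summed level was 11.7 to 22.4 on the Western arrays, against 68.3 on Control male 1 and 7.41 to 19.6 on the other control arrays; the part of that tissue in the metallothionein values was not tested. Enterocyte markers averaged 5.76 to 6.49 on the Western arrays, against 5.85 on Control male 1, the lowest control array, and 6.28 to 6.58 on the other control arrays. On this list Control male 1 was low among the controls and inside the range of the Western arrays. The list holds Sis, Mgam and Slc5a1, which differed by -1.06, -1.25 and -0.92 between the diets, and Fabp1, which differed by 0.82. These averages therefore do not measure the share of enterocytes alone. In bulk RNA, fewer enterocytes and less of a transcript per enterocyte cannot be told apart. A list of 9 glucocorticoid response genes also differed between arrays. It averaged 1.98 and 0.93 on Western male arrays and 1.00 and 1.06 on Western female arrays, against 0.81 and 1.74 on control male arrays and 1.08 and 1.08 on control female arrays. Western male 1 and Control male 2 were highest and Control male 1 lowest. Fkbp5, a glucocorticoid-induced co-chaperone of the steroid receptors, was at 3.59 and 1.93 on Western male arrays and 0.49 and 0.82 on Western female arrays, against -0.22 and 2.21 on control male arrays and 1.23 and 0.96 on control female arrays. It shared its highest and lowest array with Mt1 and Mt2. Of the other genes in the list, Per1 and Tsc22d3 were also lowest on Control male 1, at 0.36 and 1.68. Ddit4, Sgk1, Dusp1, Klf9, Nr3c1 and Zbtb16 were lowest on other arrays, Ddit4 and Sgk1 on Western male 2 at 1.35 and 3.79. The part of a glucocorticoid response in the values of Mt1 and Mt2 was not tested.

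The arrays were hybridised on 3 slides, and on the first, which held replicate 1 of every group, the diet difference was 1.85 for Mt1 and 2.54 for Mt2. The control male of that slide is Control male 1, and in males the slide difference was 3.28 for Mt1 and 4.40 for Mt2. For Mt1 in females, the difference was 0.42 on the first slide and 0.41 on the third. For Mt2 in females, it was 0.69 on the first slide.

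**Figure D1:**
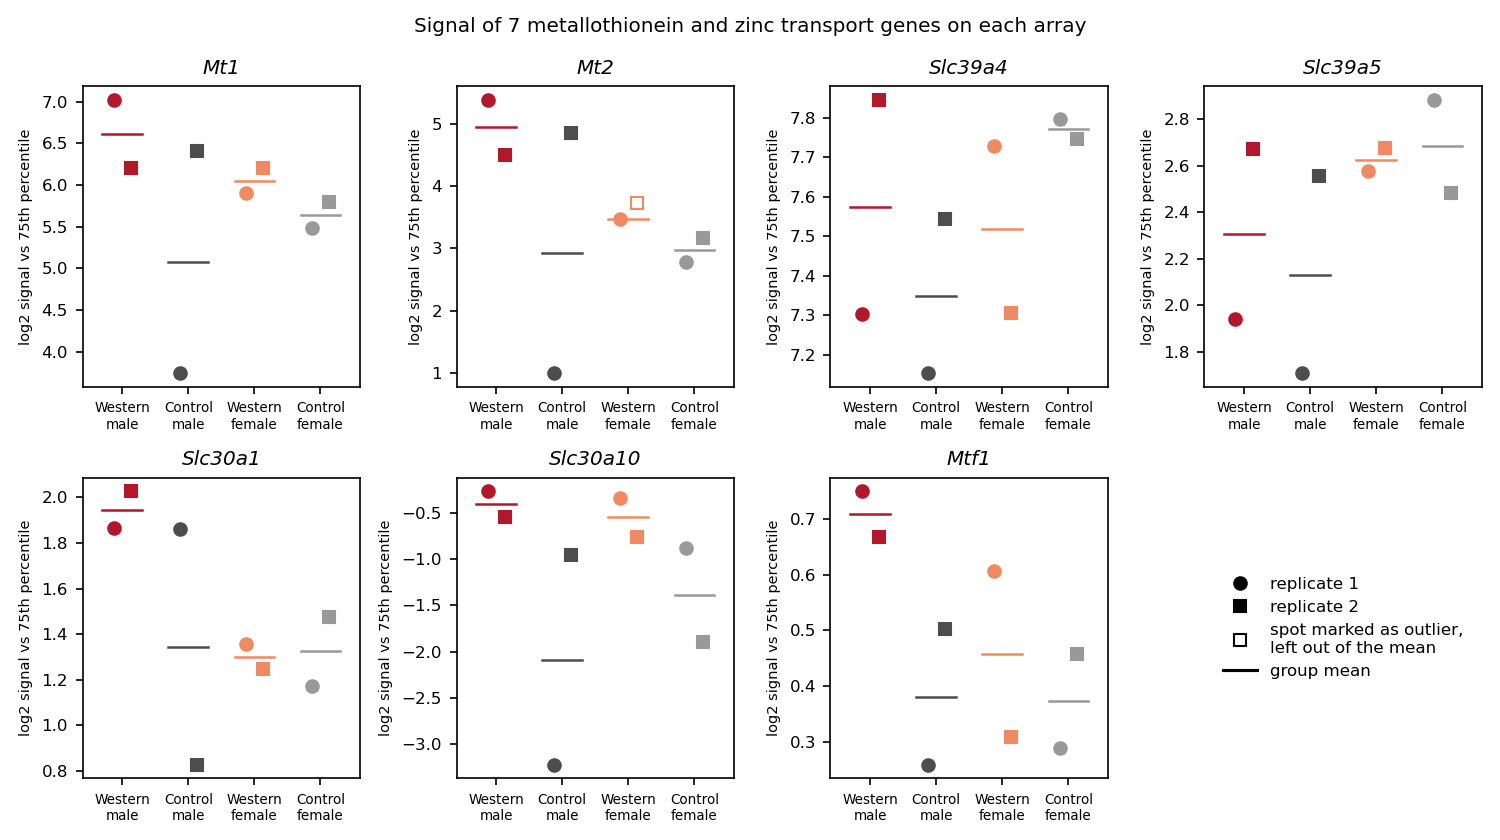
Log2 signal relative to the 75th percentile of each array (vertical axis) for the 7 genes, by group, with 1 point per array and a bar at the group mean. Mt1, Mt2 and Slc30a10 spread most between arrays, with Control male 1 lowest at 3.74, 0.99 and -3.22, while Slc39a4 stayed between 7.15 and 7.85.

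Among the importers, Slc39a4 and Slc39a5 differed little by diet. Slc39a4 encodes ZIP4, the importer on the luminal membrane of enterocytes whose loss in humans causes the zinc deficiency acrodermatitis enteropathica. It was at 7.30 and 7.85 on Western male arrays and 7.73 and 7.31 on Western female arrays, against 7.15 and 7.54 on control male arrays and 7.80 and 7.75 on control female arrays. The arrays lay within 1.62-fold of each other, and the diet difference was -0.01 ± 0.20 (SE; 95% interval -0.51 to 0.49), with an adjusted p of 0.999 in limma. That interval leaves room for a change of about 0.5 on the log2 scale in either direction.

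Slc39a5 encodes ZIP5, found on the blood-facing membrane of enterocytes and in pancreatic acinar cells. It was at 1.94 and 2.67 on Western male arrays and 2.58 and 2.67 on Western female arrays, against 1.71 and 2.55 on control male arrays and 2.88 and 2.48 on control female arrays. Replicate 1 was the lower of the male arrays on both diets. The diet difference was 0.06 ± 0.27 (SE; 95% interval -0.61 to 0.73; adjusted p = 0.999 in limma), and the arrays spanned 2.26-fold.

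Of the exporters, Slc30a10 had the only separation of the diets among the 7 genes. It belongs to the zinc exporter family by sequence and is known in humans and mice as an exporter of manganese. It was at -0.26 and -0.54 on Western male arrays and -0.33 and -0.75 on Western female arrays, against -3.22 and -0.95 on control male arrays and -0.88 and -1.90 on control female arrays. Every Western array was above every control array, the nearest pair being 0.12 apart; 0.864% of all tested genes had their Western arrays all above the control arrays. The Western mean was -0.47 ± 0.22 and the control mean -1.74 ± 1.09 (SD, n = 4 each). The difference of 1.27 ± 0.53 (SE; 95% interval -0.04 to 2.57), or 2.40-fold, had an adjusted p of 0.995 in limma and did not pass. Leaving out an array cannot undo a full separation, so that check does not bear on it. The size of the difference depended on the array left out. It was 0.70 without Control male 1, 1.83 without Control male 2, 1.52 without Control female 1 and 1.01 without Control female 2. Control male 1, the lowest array here too, is the one with the high smooth muscle markers, whose part in this value was not tested. Control female 2, the next lowest at -1.90, is the array that stood apart on the first principal component, at 146.4. Its part in the difference was not tested either. The remaining control arrays were at -0.95 and -0.88, against -0.75 on the lowest Western array. On the first slide the difference was 1.75, and in males, where the control was Control male 1, it was 2.96. In females it was 0.55 on the first slide and 1.14 on the third, where the control was Control female 2.

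Slc30a1 encodes ZnT1, the exporter that moves zinc out of the enterocyte across the blood-facing membrane and a known target of Mtf1. It was at 1.87 and 2.03 on Western male arrays and 1.35 and 1.25 on Western female arrays, against 1.86 and 0.83 on control male arrays and 1.17 and 1.47 on control female arrays. The Western males were highest, but Control male 1 came next to them and the diets overlapped. The diet difference was 0.29 ± 0.26 (SE) or 1.22-fold (adjusted p = 0.995 in limma), and it was 0.55 without Control male 1 and 0.03 without Control male 2. Control male 1, the lowest array for Mt1, Mt2 and Slc30a10, was thus the higher of the control males for Slc30a1.

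Mtf1 had the smallest span of the 7 tested probes. On its brightest probe it was at 0.75 and 0.67 on Western male arrays and 0.61 and 0.31 on Western female arrays, against 0.26 and 0.50 on control male arrays and 0.29 and 0.46 on control female arrays. The arrays spanned 1.41-fold and the diets overlapped through Western female 2, the array with the high fat cell markers, whose part in its values was not tested. The diet difference was 0.21 ± 0.15 (SE) or 1.15-fold (adjusted p = 0.995 in limma). A second probe, also well above background on 8 arrays, spanned 2.16-fold, wider than Slc39a4, and gave a diet difference of 0.11 ± 0.25, and the last was above background on 0 arrays.

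**Figure D2:**
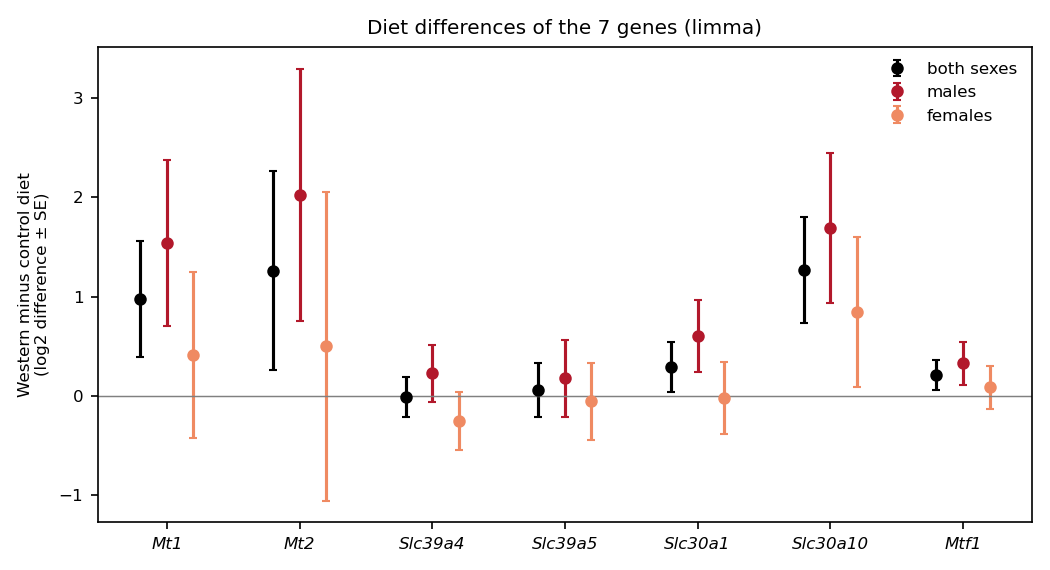
Log2 difference, Western minus control diet, for each of the 7 genes, with its standard error, over all arrays, in males and in females. Slc30a10, Mt2 and Mt1 had the largest differences over all arrays, at 1.27, 1.26 and 0.97, and Slc39a4 and Slc39a5 lay at -0.01 and 0.06.

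For the diet as a whole, 0 of the 7 genes passed at an adjusted p under 0.05, and neither did any of the 21308 genes tested (0%), the smallest adjusted p being 0.125. At an unadjusted p under 0.05, limma called 0 of the 7 genes and 910 genes (4.27%) in all, 138 of them higher (0.648%) and 772 lower (3.62%); 2.3% of all genes had their Western arrays all below the control arrays. By size alone, the differences of Slc30a10 and Mt2 each stood at the 99.7th percentile of all genes and that of Mt1 at the 99.4th, where the median gene was at -0.06 and 40.5% of genes were above 0. The genes were chosen with earlier results of these data known, so these percentiles only describe them. By p-value Slc30a10 ranked 1020 of 21308, beside an SD between arrays of 0.22 on the Western diet and 1.09 on the control diet.

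**Figure D3:**
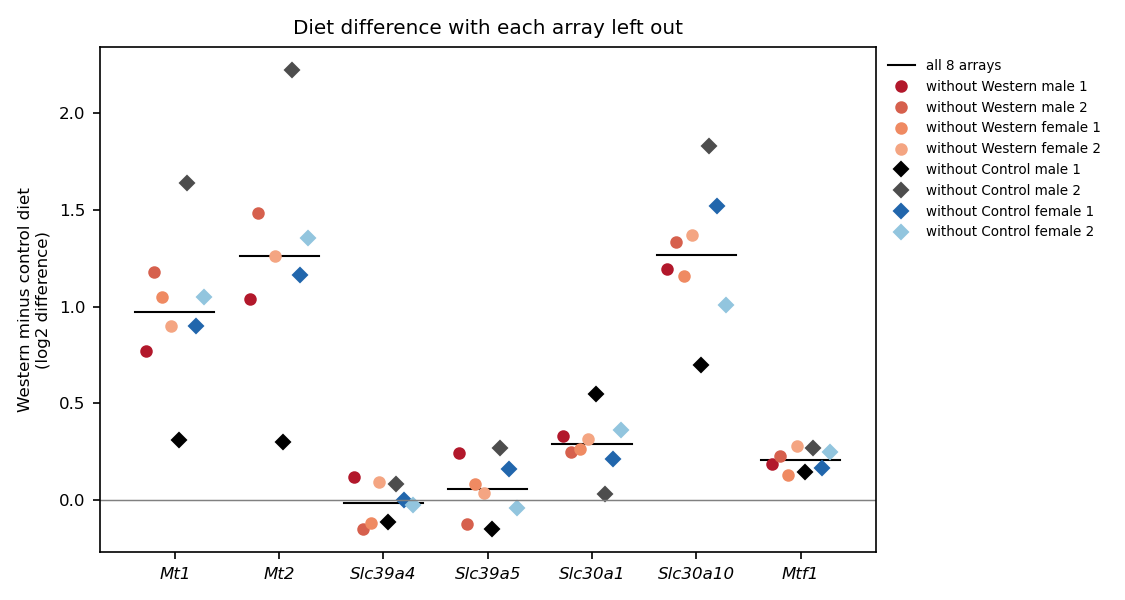
Log2 difference, Western minus control diet, for each of the 7 genes over all arrays and with each array left out in turn. The values for Mt1 ran between 0.31 and 1.64 and those for Slc30a10 between 0.70 and 1.83, with Control male 1 and Control male 2 at the ends.

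Within the sexes, the differences were larger in males for Mt1, Mt2 and Slc30a10, and the control male arrays lay far apart. In males, Slc30a10 was 1.69 ± 0.75 (SE) or 3.22-fold higher on the Western diet, Mt1 differed by 1.54 ± 0.83 or 2.90-fold, and Mt2 by 2.02 ± 1.27 or 4.07-fold, each with an adjusted p of 1.00 in limma. For 3 of the 7 genes, Slc30a10, Slc30a1 and Mtf1, both Western male arrays were above both control male arrays, an arrangement seen in 12.1% of all genes, against 13% with both Western arrays below; for Slc30a1 the nearest arrays, at 1.87 and 1.86, were almost level. Slc30a1 differed by 0.60 ± 0.36 and Mtf1 by 0.33 ± 0.22. These male values turn on 1 array: without Control male 1 the difference was 0.55 for Slc30a10, 0.21 for Mt1, 0.10 for Mt2 and 1.12 for Slc30a1. Without Control male 2 it was 2.82 for Slc30a10, 2.87 for Mt1, 3.95 for Mt2 and 0.086 for Slc30a1. No gene passed in males (0%), where limma called 277 genes (1.3%) at an unadjusted p under 0.05.

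In females, both Western arrays were above both control arrays for Mt1 and Slc30a10, as for 9.59% of all genes. Mt2 had 1 usable Western array, which was above both control arrays; that share does not apply to it. Slc30a10 differed by 0.84 ± 0.75 (SE) or 1.80-fold, Mt1 by 0.41 ± 0.83 or 1.33-fold and Mt2 by 0.50 ± 1.56. Slc39a4 was the reverse, with both Western arrays below both control arrays and a difference of -0.25 ± 0.29; 21.8% of all genes had that arrangement, and the median gene in females was at -0.11. Slc39a5, Slc30a1 and Mtf1 lay at -0.06, -0.02 and 0.09. No gene passed in females (0%), where 1085 genes (5.09%) had an unadjusted p under 0.05. Without Control female 1, 394 genes passed and 3574 had an unadjusted p under 0.05, with none of the 7 among those that passed. The female difference without that array was 1.35 for Slc30a10, 0.26 for Mt1, 0.31 for Mt2 and -0.23 for Slc39a4. It was 0.15 for Slc39a5, which changed sign, -0.17 for Slc30a1 and 0.00 for Mtf1. Without Control female 2 it was 0.33 for Slc30a10, 0.56 for Mt1, 0.69 for Mt2 and -0.26 for Slc39a5.

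The test of the difference between the sexes in the diet effect, females minus males, gave -0.84 ± 1.07 (SE) for Slc30a10, -1.13 ± 1.18 for Mt1 and -1.53 ± 2.01 for Mt2, with adjusted p of 1.00 in limma for all 7 genes. No gene passed it (0%), and 346 (1.62%) had an unadjusted p under 0.05. The larger male values are therefore not shown to differ from the female ones. Between females and males over both diets, Slc39a5 differed by 0.43 ± 0.27 (SE), Slc30a1 by -0.33 ± 0.26 and Mt1 by 0.00. Control female 1, with its Y-linked transcripts, was counted as female here. With 1 array left out in turn, Slc39a5 ranged from 0.22 to 0.65 and Slc30a1 from -0.59 to -0.07. No gene passed for sex (0%), and 821 (3.85%) had an unadjusted p under 0.05 in limma. The sexes overlapped for all 7 genes, while 1.96% of all genes were higher on every female array and 1.03% lower. Without Control female 1, the sex difference of Slc30a10 was 0.02, against 0.28 with it, and that of Mt1 was 0.07; 3 genes passed for sex and 2 for the diet effect between the sexes, none of them among the 7.

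No gene of the 2 transporter families passed the test. Of 14 ZIP importers, all measured, 8 were higher and 6 lower on the Western diet. Among all tested genes, 40.5% were higher. In the importers 0 passed, and the median difference was 0.03 against -0.06 for all genes. Slc39a8, which encodes ZIP8, an importer of zinc and manganese, was at -1.55, -1.86, -1.96 and -1.55 on Western arrays, against -2.04, -2.11, -2.25 and -2.22 on control arrays. All of its Western arrays were above the control arrays, as for 0.864% of all tested genes, with a difference of 0.42 ± 0.16 (SE). Slc39a2 and Slc39a13, other importers of the family, differed by -0.30 and 0.23. Slc39a12, which encodes an importer known from brain, was well above background on 2 control arrays and on no Western array, so its difference of -2.17 is not a measured fold.

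Of 10 ZnT exporters, 8 were bright enough to be tested. Of these, 7 were higher and 1 lower, where 40.5% of all genes were higher. In this family 0 passed, and the median was 0.14. Slc30a4, which encodes ZnT4, a transporter of intracellular vesicles, was at 4.33, 4.76, 4.46 and 3.99 on Western arrays, against 4.22, 3.94, 4.11 and 3.98 on control arrays. Only Western female 2 lay among the control arrays, and the difference was 0.32 ± 0.19 (SE). Slc30a7, which encodes ZnT7, a transporter of the Golgi apparatus, differed by 0.16. Slc30a10 was the only exporter whose diets did not overlap. Of the remaining metallothioneins, Mt3 differed by -0.07 ± 0.19 and Mt4 by -0.29 ± 0.25.

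**Figure D4:**
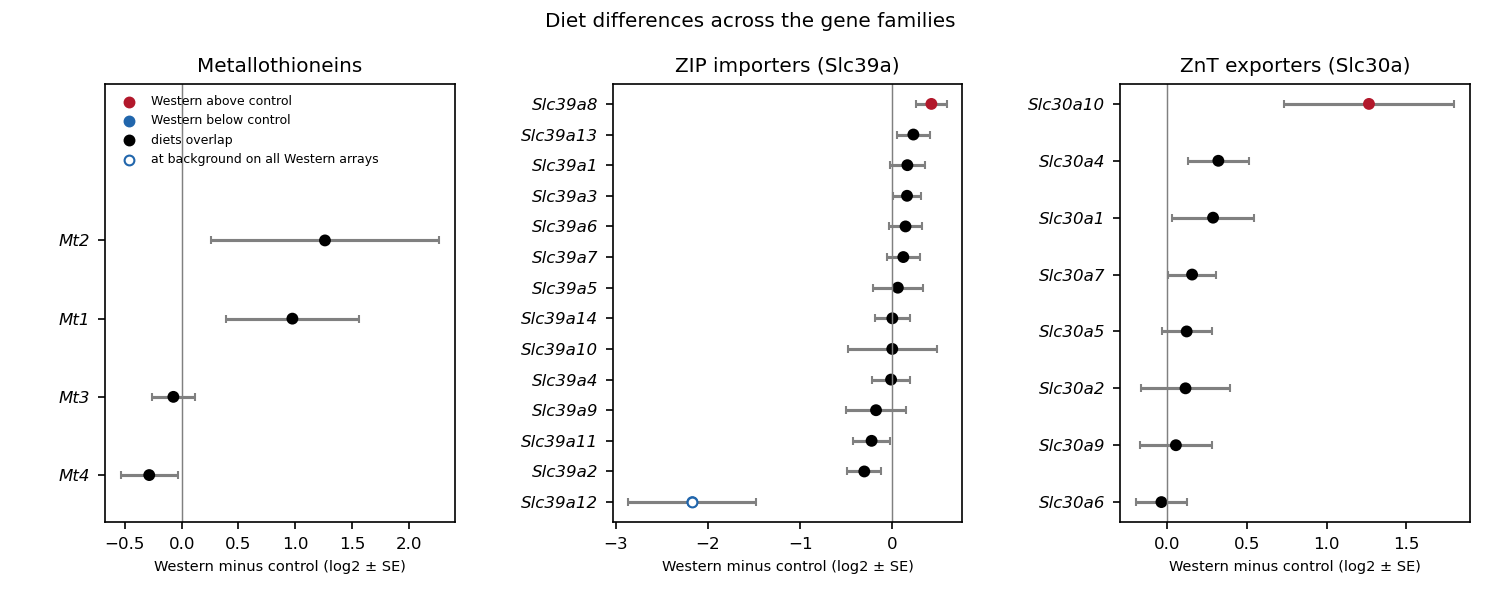
Log2 difference, Western minus control diet, with its standard error, for each measured gene of the ZIP, ZnT and metallothionein families; the open point was not well above background on any Western array. Slc30a10 at 1.27 is the highest of the exporters, where Slc30a4 follows at 0.32, and Mt1 and Mt2 lie at 0.97 and 1.26, with Mt3 and Mt4 below 0.

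Other genes described as Mtf1 targets differed in both directions. Of 10 such genes, Mt1 and Mt2 included, 6 were higher and 4 lower, where 40.5% of all genes were higher. The 4 lower genes included differences as small as -0.03 and -0.0007, and the list was not split by the direction in which Mtf1 acts. In this list 0 passed, and the median was 0.21. Slc40a1, the iron exporter ferroportin, was at 1.84, 0.64, -0.01 and 1.06 on Western arrays, against 0.99, 0.35, -0.63 and -0.15 on control arrays, a difference of 0.74 ± 0.39 (SE). Pgf, a growth factor of blood vessels, was at -2.47, -1.73, -1.95 and -2.72 on Western arrays, against -2.01, -2.15, -1.28 and -0.99 on control arrays, a difference of -0.61 ± 0.26. Both sets of arrays overlapped.

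Mt1 and Mt2 varied together over the 8 arrays, with a Pearson correlation of 0.97, and 0.94 without the 2 arrays farthest from the median (Control male 1 and Western male 1). Mt2's marked spot was kept for these correlations. They describe 8 arrays that share slides, and were ranked over 12393 genes that were well above background on all of them. The gene most like the mean of Mt1 and Mt2 was Herpud1, an endoplasmic reticulum protein that takes part in the disposal of misfolded proteins, at 0.98, and 0.97 without the same 2 arrays. It was at 4.24, 3.79, 3.69 and 3.76 on Western arrays, against 3.05, 3.92, 3.56 and 3.57 on control arrays, a difference of 0.34 ± 0.24 (SE). Map1lc3b, a protein of the autophagosome, Mcl1, which restrains cell death, Fosl2, a subunit of the factor AP-1, and Zfp385b, a zinc finger protein, came next at 0.93, 0.93, 0.93 and 0.92; without those arrays Map1lc3b was at 0.78, Mcl1 at 0.91, Fosl2 at 0.75 and Zfp385b at 0.91.

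Slc30a10 correlated with the metallothionein mean at 0.85, but at 0.28 without the 2 arrays, so the likeness rests on them. Mtf1 stood at 0.75, and at 0.51 without them. Slc39a5, Slc39a4 and Slc30a1 were at 0.31, 0.23 and -0.13, and at -0.39, -0.32 and 0.00 without them, so that the sign turned for both importers. The genes most like Slc30a10 were the cytochrome P450 genes Cyp3a57, Cyp3a25 and Cyp3a59, with Fosl2 and Inpp5k, a phosphoinositide phosphatase, at 0.94 to 0.97. Without Control male 1 and Control female 2, those correlations ranged from 0.00 to 0.62, so they too rest on 2 arrays.

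**Figure D5:**
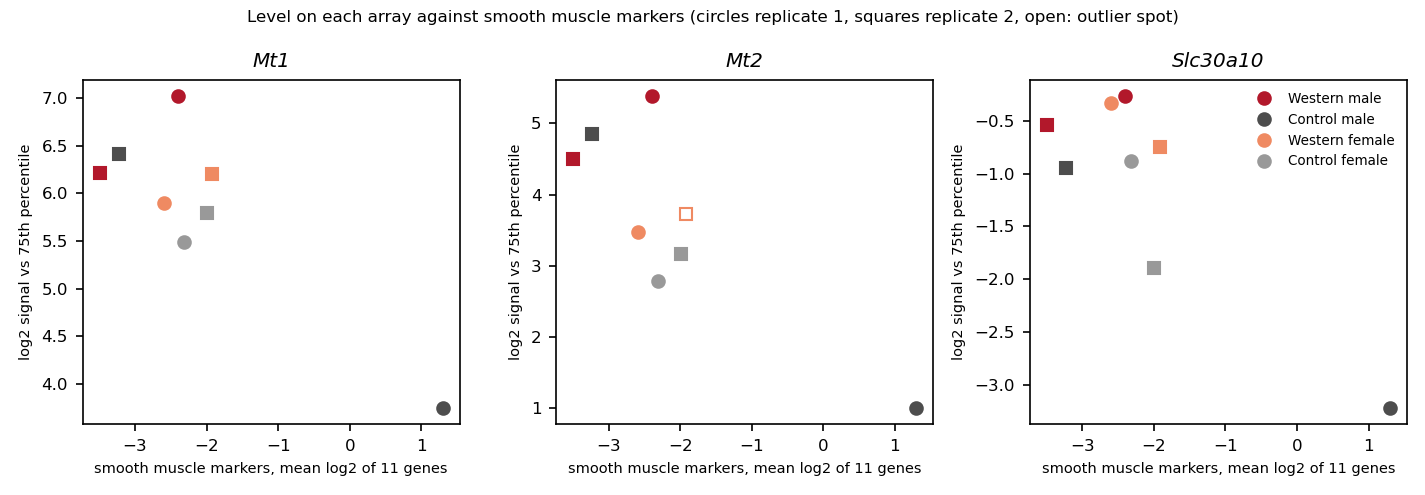
Mean log2 level of 11 smooth muscle markers (horizontal axis) against the level of Mt1, Mt2 and Slc30a10 (vertical axis), both relative to the 75th percentile, with 1 point per array. Control male 1, at a marker mean of 1.30, is the lowest array for all 3 genes; the other arrays lie at marker means of -3.49 to -1.92.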

How the data were processed

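The deposited files hold, per the file headers, the output of Agilent Feature Extraction 10.7.3.1 for 1-colour arrays of design 026655. The processed signal, a background-corrected intensity, was used as the authors deposited it. Control spots (1377) and spots marked as outliers were left out, repeated probes (399) were averaged, and log2 values were taken relative to the 75th percentile of each array. A probe entered when 2 or more arrays showed it well above background, and each of the 21308 genes was represented by its brightest probe. Probes were named through RefSeq accessions (GRCm38.p6), which gave 26412 probes a symbol. Group means were fitted over all 8 arrays in limma 3.58.1 (R 4.3.3) with eBayes, and p-values were adjusted by Benjamini-Hochberg over all genes, with a threshold of 0.05. Named genes were the 7 members, up to 4 members of each list with the smallest p for diet, and the 5 genes most correlated with a member. The members and lists were chosen with earlier results of these data known. The number of arrays, 2 a group, limits the precision. Alternatives changed the filter, background correction, normalization, choice of probe, outlier spots and blocks, or left out 1 array. The fit was tested on simulated data with less spread between arrays than Mt1, Mt2 and Slc30a10 had on the control diet. That test therefore does not show how the fit behaves at their spread.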

Additional observations from a re-analysis of the deposited data

Results flagged for a closer look

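Among 26 sets of 4 values (each gene within a diet or a sex), 3 held an array farther from the rest than Dixon's 95% limit allows. Chance gives about 1 in 20 for independent sets of like values. Here the sets share arrays and each mixes sexes or diets, so that rate is only a rough guide. For Slc39a4 in females, Western female 2 was at 7.31, with the nearest female array at 7.73; Western female 2 is also the array whose fat cell markers averaged 1.58, against -3.48 to -1.68 on control arrays, and their part in this value was not tested. For Slc39a5 on the Western diet, Western male 1 was at 1.94, with the nearest Western array at 2.58. For Slc30a1 in males, Control male 2 was at 0.83, with the nearest male array at 1.86. Mt2 was not checked on the Western diet or in females, where it had 3 values.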

How the results depend on the processing

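No member passed the threshold under any of the 17 alternatives. Adjusted p for the diet difference ranged from 0.312 to 1.00 for Slc30a10, 0.640 to 1.00 for Mt1 and 0.677 to 1.00 for Mt2. Genes past the threshold numbered 0 for diet and for diet in males with any array left out, 0 to 394 for diet in females, 0 to 2 for diet by sex and 0 to 3 for sex, the highest each time without Control female 1; without Control female 2 diet in females had 2. At an unadjusted p under 0.05, diet gave 506 (slide as a block) to 3189 (without Control female 1) genes. Of 118 values for diet, 110 kept their direction, as did 114 of 119 in males, 112 of 118 in females, 112 of 118 for diet by sex and 111 of 118 for sex.

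The directions that turned were these. With normexp background correction, Slc39a4 was 0.062 for diet, Slc39a5 0.028 for diet in females and Mt1 0.015 for sex. With slide as a block, Slc39a5 was -0.077 for diet, -0.10 in males and 0.043 for diet by sex, and Slc39a4 -0.058 in males. With the mean of probes, Mtf1 was -0.079 in females. Leaving out 1 array, the diet difference ranged from -0.15 to 0.12 for Slc39a4 and -0.15 to 0.27 for Slc39a5. In males it ranged from -0.044 to 0.50 for Slc39a4 and -0.25 to 0.60 for Slc39a5. In females it ranged from -0.26 to 0.15 for Slc39a5, -0.17 to 0.13 for Slc30a1 and -0.063 to 0.23 for Mtf1. Diet by sex ranged from -2.46 to 0.21 for Mt1, -3.45 to 0.40 for Mt2, -0.65 to 0.19 for Slc39a5 and -1.98 to 0.29 for Slc30a10. Sex ranged from -0.67 to 0.66 for Mt1, -1.67 to 0.26 for Mt2 and -0.29 to 0.85 for Slc30a10. The cause of these turns was not tested.

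Quantile normalization moved the median of all genes by 0.10 for diet, 0.18 for diet in females, 0.18 for diet by sex and -0.10 for sex, and the differences of Slc30a10, Mt1 and Mt2 for diet stayed above 0 under it. Mt2 was 1.33 for diet with its marked spot kept, 2.32 with scan day and 2.54 with slide as a block, and gave no value for diet without Western female 1. The value with slide as a block is the difference on the first slide alone, where the control male is Control male 1. Western male 2 was the only array on the second slide. The replicate numbers were not shown to pair the arrays: over 6 pairs of groups, deviations of same-numbered arrays correlated from -0.12 to 0.35. With a replicate block, 0 genes passed in any comparison, 1013 genes had an unadjusted p under 0.05 for diet against 910 without it, and Mt2 was 1.54. Normexp on the mean signal was not run, since the files used here give the median signal; normexp on the median and keeping outlier spots were chosen after seeing the data.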

Other observations

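Genes of neighbouring processes differed in both directions between the diets, as did genes in general, of which 40.5% were higher on the Western diet. The counts below lie near that share. Of 10 copper handling genes, 4 were higher and 6 lower on the Western diet, with a median difference of -0.02 on the log2 scale and 0 passing in limma. Sod1, the copper and zinc superoxide dismutase, differed by 0.37, its copper chaperone Ccs by 0.20, Cox17, a copper chaperone of the mitochondria that was well above background on 6 arrays, by 1.08 ± 0.96 (SE), and Atp7b, a copper-exporting pump, by -0.54. Of 9 glucocorticoid response genes, 4 were higher and 5 lower, with a median of -0.01 and 0 passing. Tsc22d3, which encodes the glucocorticoid-induced leucine zipper, differed by 0.33 and Dusp1, a phosphatase of MAP kinases, by -0.31; Ddit4, an inhibitor of mTOR signalling, differed by -0.55 and Fkbp5 by 0.66 ± 0.62 (SE). Of 13 zinc metalloenzymes of the gut, 6 were higher and 7 lower, with a median of -0.09 and 0 passing. The brush-border peptidases Mme and Mep1a differed by -0.42 and 0.21, the carbonic anhydrase Car4 by -0.33 and the alkaline phosphatase Akp3, well above background on 5 arrays, by -0.25. The median of all genes was -0.06.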
